A study of Ramazzottius varieornatus with 18 samples.

Results

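E74, E75 and E78 of the tardigrade Ramazzottius varieornatus are 3 of the 14532 transcripts quantified in its juveniles. They were chosen by name: E74 is g10224.t1, E75 is g7221.t1 and E78 is g11712.t1 in the study's display of the molting pathway, where the names rest on BLASTP similarity to known pathway proteins. In its table of expression values the study lists g11712.t1 under the name E75, and the name E78 is used here.

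RNA was sequenced from whole juveniles of the strain YOKOZUNA-1, a line founded by 1 individual and fed the alga Chlorella vulgaris, without any treatment. The groups were Juvenile 2d, 3d, 4d, 5d, 6d and 7d, with 3 libraries for each day and 18 in all. The methods describe collection for juvenile days 3 to 7, and the labelled days were used. Nothing in the sources says that the 3 libraries of a day came from separate cultures, so p-values measure the spread between these libraries, which may be technical.

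In insects, a pulse of the steroid hormone ecdysone starts each molt by binding a receptor made of EcR and USP, and this receptor turns on a small set of early genes. E74 and E75 belong to that set. E74, E75 and E78 take their names from chromosome puffs that the hormone raises in Drosophila salivary glands. In Drosophila E74 encodes a transcription factor with an ETS DNA-binding domain, while E75 and E78 encode related nuclear receptors, and E75 binds heme and opposes the nuclear receptor HR3. These roles are known from Drosophila and were not examined in tardigrades here.

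The estimated counts of a library summed to between 1250604 in Juvenile 7d replicate 3 and 5095736 in Juvenile 6d replicate 1, and the median library held 3700490. Across the 10436 transcripts tested, Pearson's r of log2(TPM + 1) between replicates had a median of 0.972 over the 12 pairs of Juvenile 2d to 5d and of 0.904 over the 6 pairs of Juvenile 6d and 7d. The libraries of the last 2 days thus resembled each other less. E74 had 21 to 519 counts in a library, E75 had 67 to 366 and E78 had 19 to 1050. Each of the 3 is the only transcript of its gene, and its estimated count was a whole number, to within 1e-06, in all 18 libraries. Levels are deposited TPM (transcript abundance per library, made to a common sum), which are scaled by effective length so that genes can be set side by side. The effective lengths assume fragments of 350 bases (SD 50), whereas the methods describe libraries selected for a smaller size. Levels of different genes are therefore compared only approximately. Because whole animals were sequenced, fewer cells of a type and less RNA per cell cannot be told apart.

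All 3 members were low at Juvenile 2d and had their highest mean TPM at Juvenile 4d, but their courses differed. For E78 the Juvenile 4d mean of 67.6 TPM was close to the 66.2 TPM of Juvenile 3d, and it was 59.5 TPM without Juvenile 4d replicate 1. E74 stood out at Juvenile 4d alone. E75 was raised at Juvenile 4d, and its Juvenile 5d libraries overlapped those of Juvenile 4d. E78 was already high at Juvenile 3d, and its Juvenile 7d mean was again close to that of Juvenile 4d.

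**Figure D1:**
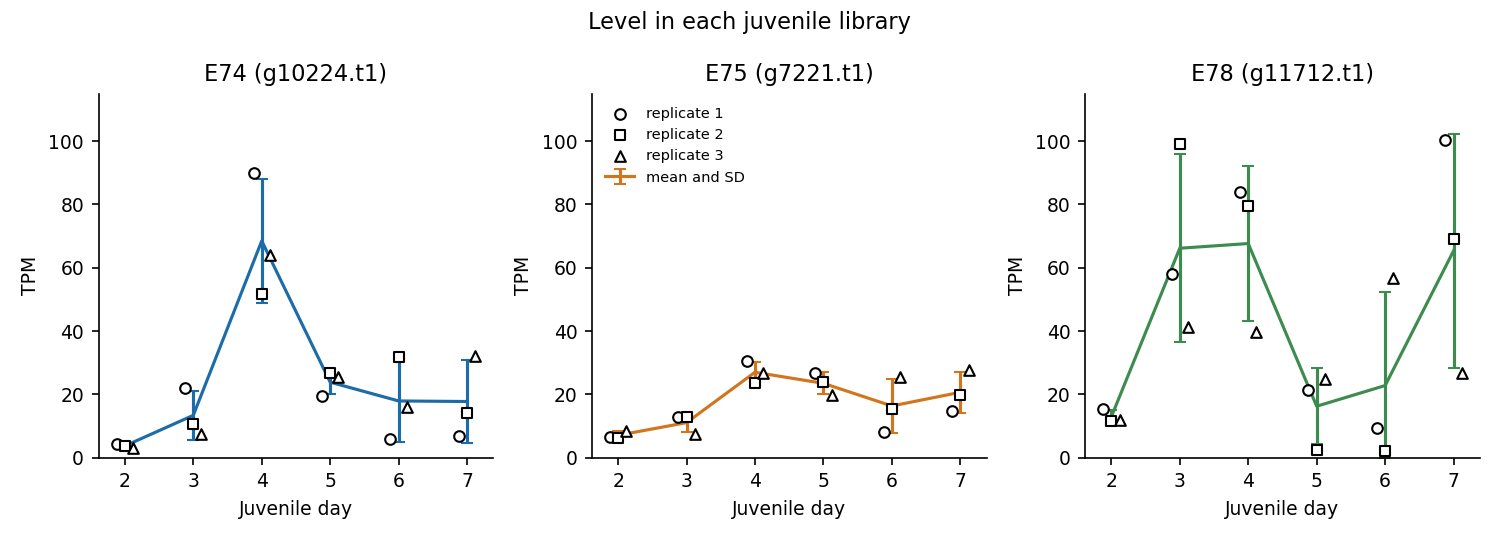
TPM of E74, E75 and E78 (vertical axes, linear and equal in scale) against juvenile day (horizontal axes). Open symbols are the 3 libraries of a day, and lines and bars are the daily mean and SD (n = 3), with bars stopped at 0. The 3 Juvenile 4d libraries of E74 sit between 51.7 and 89.8 TPM, above every other library of E74, whereas E78 spans 2.16 to 56.8 TPM within Juvenile 6d.

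E74, the ETS-domain factor, had 4.37, 3.74 and 3.14 TPM in replicates 1, 2 and 3 of Juvenile 2d. At Juvenile 3d it had 22.1, 10.6 and 7.55 TPM, and at Juvenile 4d 89.8, 51.7 and 64.0 TPM. The Juvenile 2d libraries were all below those of Juvenile 3d, as in 42% of the transcripts tested. The Juvenile 4d libraries were all above every other day, and how many of all transcripts shared this was not counted. At Juvenile 5d it had 19.6, 26.7 and 25.4 TPM. At Juvenile 6d it had 6.06, 31.7 and 16.1 TPM, and at Juvenile 7d 6.83, 14.3 and 32.2 TPM. The Juvenile 5d libraries lay close together, while those of Juvenile 6d and 7d spread from near the Juvenile 2d level to above the Juvenile 5d level.

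E74 averaged 68.5 ± 19.4 TPM at Juvenile 4d against 13.4 ± 7.66 TPM at Juvenile 3d (SD, n = 3 each), a log2 fold change of 2.17 with a standard error (SE) of 0.51 (edgeR quasi-likelihood test, Benjamini-Hochberg adjusted p = 0.0126). In this step 12.5% of the transcripts tested were called at an adjusted p of up to 0.05, and 7.17% were called higher. That is 1308 transcripts, and without single libraries edgeR called 851 (Juvenile 3d replicate 2 left out), 490 (3d replicate 3), 534 (4d replicate 1) or 2265 (6d replicate 1). Leaving out 1 of 3 libraries ended the call, at an edgeR adjusted p of 0.0583 (Juvenile 3d replicate 2 left out), 0.0805 (Juvenile 3d replicate 3) or 0.0565 (Juvenile 4d replicate 1). Against the mean of the other 5 days, E74 was higher at Juvenile 4d by 2.22 on the log2 scale (SE 0.33, edgeR adjusted p = 0.000154), in a comparison where 32.4% of the transcripts were called (3384, and 2084 without Juvenile 4d replicate 1). This call held with each library left out in turn, with an edgeR adjusted p of at most 0.0027. The study named Juvenile 4d on these libraries, so no test of that day is independent of its choice.

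The other steps of E74 were not called. Juvenile 3d against 2d gave a log2 fold change of 1.55 (SE 0.56, edgeR adjusted p = 0.0526) and Juvenile 5d against 4d one of −1.30 (SE 0.49, edgeR adjusted p = 0.0666), although the libraries did not overlap in either step. Of all transcripts tested, 42% were higher without overlap at Juvenile 3d than at 2d and 37.4% were lower without overlap at Juvenile 5d than at 4d, while 25.8% and 24.8% were called by edgeR in these steps. The 2694 calls of the earlier step numbered 1665 to 1731 without Juvenile 2d replicate 2 or 3 or Juvenile 3d replicate 1 or 2, and the 2591 calls of the later step numbered 1640 without Juvenile 5d replicate 2. With the fit limited to the libraries of Juvenile 2d to 5d, both steps passed (edgeR adjusted p = 0.00685 and 0.00465). Juvenile 6d against 5d and Juvenile 7d against 6d gave −0.60 and −0.13 on the log2 scale, with overlapping libraries. The first was −1.25 without Juvenile 6d replicate 2 and −0.28 without 6d replicate 1. The second turned positive without Juvenile 6d replicate 2 (0.52) or 7d replicate 1 (0.27).

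E75, the heme-binding nuclear receptor of Drosophila, had 6.67, 6.21 and 8.48 TPM at Juvenile 2d. At Juvenile 3d it had 12.8, 12.8 and 7.65 TPM, and at Juvenile 4d 30.4, 23.8 and 26.8 TPM. Every Juvenile 4d library was above every Juvenile 3d library, as in 31.8% of the transcripts tested, whereas Juvenile 3d replicate 3 lay within the range of Juvenile 2d. At Juvenile 5d it had 26.6, 24.0 and 19.8 TPM, which overlapped Juvenile 4d. At Juvenile 6d it had 8.20, 15.5 and 25.4 TPM, and at Juvenile 7d 14.7, 19.8 and 27.6 TPM. Juvenile 6d replicate 1 was the only library after Juvenile 3d in the range of Juvenile 2d.

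E75 averaged 27.0 ± 3.35 TPM at Juvenile 4d against 11.1 ± 2.99 TPM at Juvenile 3d (SD, n = 3 each), a log2 fold change of 1.11 with a standard error of 0.25 (edgeR adjusted p = 0.0113). This call was lost without Juvenile 3d replicate 3, where the log2 fold change was 0.90 (edgeR adjusted p = 0.0780). Against the other 5 days E75 was higher at Juvenile 4d by 0.73 on the log2 scale (SE 0.18, edgeR adjusted p = 0.00696), and this held with each library left out, with an edgeR adjusted p of at most 0.0459. From Juvenile 4d on, no step of E75 was called. Juvenile 5d against 4d had a log2 fold change of 0.00 with a standard error of 0.25 (edgeR adjusted p = 1). Juvenile 6d against 5d had −0.69 (SE 0.25, edgeR adjusted p = 0.0980), and without Juvenile 6d replicate 3 the step passed (edgeR adjusted p = 0.0337). In that step 8.63% of the transcripts tested were called, or 901, and this number rested on single libraries. It was 253, 289 and 595 without Juvenile 5d replicates 1, 2 and 3, 395 without 6d replicate 2, 2809 without 6d replicate 1 and 1574 without 7d replicate 3. E75 at Juvenile 5d was higher than at Juvenile 3d by 1.11 on the log2 scale (SE 0.25, edgeR adjusted p = 0.0077, with 19.5% of the transcripts called). For E74 this difference was 0.87 (SE 0.50) and was not called (edgeR adjusted p = 0.258). Whether the 2 members differed in this pair of days was not tested.

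E78, the nuclear receptor related to E75, had 15.3, 11.5 and 11.9 TPM at Juvenile 2d. At Juvenile 3d it had 58.1, 99.0 and 41.4 TPM, and at Juvenile 4d 83.9, 79.4 and 39.6 TPM. All libraries of Juvenile 3d were above those of Juvenile 2d, as in 42% of the transcripts tested. Those of Juvenile 4d were too, for which the share of all transcripts was not counted, and Juvenile 3d and 4d overlapped each other. At Juvenile 5d it had 21.5, 2.62 and 24.7 TPM. At Juvenile 6d it had 9.54, 2.16 and 56.8 TPM, and at Juvenile 7d 100.4, 69.0 and 26.7 TPM. The highest library of E78 was therefore Juvenile 7d replicate 1, and its lowest 2 libraries were replicate 2 of Juvenile 6d and replicate 2 of Juvenile 5d.

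These low values rested on 19 counts at Juvenile 6d replicate 2 (exact Poisson 95% interval 1.30 to 3.38 TPM) and on 26 counts at Juvenile 5d replicate 2 (1.71 to 3.84 TPM). The intervals cover counting error only, since the reads carry no molecular identifiers, and neither reached the other replicates of its day. Within Juvenile 6d the highest library of E78 had 26.2 times the level of the lowest.

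No step of E78 was called by edgeR. It averaged 66.2 ± 29.6 TPM at Juvenile 3d against 12.9 ± 2.10 TPM at Juvenile 2d (SD, n = 3 each), a log2 fold change of 2.06 with a standard error of 0.87 (edgeR adjusted p = 0.0960). Limited to the libraries of those 2 days, the same step passed with a log2 fold change of 2.11 (edgeR adjusted p = 0.000634). Juvenile 4d against 3d gave −0.14 (SE 0.83, edgeR adjusted p = 0.939), where E74 and E75 were called higher. Juvenile 5d against 4d gave −1.87 (SE 0.86, edgeR adjusted p = 0.131). Every Juvenile 5d library was below every Juvenile 4d library, as in 37.4% of the transcripts tested. Juvenile 6d against 5d gave 0.27 (SE 0.85, edgeR adjusted p = 0.881), and the sign turned without Juvenile 6d replicate 3 (−1.22) or 5d replicate 2 (−0.26). Juvenile 7d against 6d gave 1.57 (SE 0.86, edgeR adjusted p = 0.536), in a step where edgeR called 0 transcripts, DESeq2 60 and limma 0, and 1059 had an unadjusted p below 0.05. Without Juvenile 6d replicate 3, edgeR called 446 transcripts in this step and the estimate for E78 was 3.06 (edgeR adjusted p = 0.0683), and without 7d replicate 3 it called 47. The estimate for E78 was 1.03 without 6d replicate 2 and 1.07 without 7d replicate 1. Juvenile 4d against the other days gave 1.05 (SE 0.60, edgeR adjusted p = 0.201), which passed without Juvenile 6d replicate 3 (edgeR adjusted p = 0.0484).

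**Figure D2:**
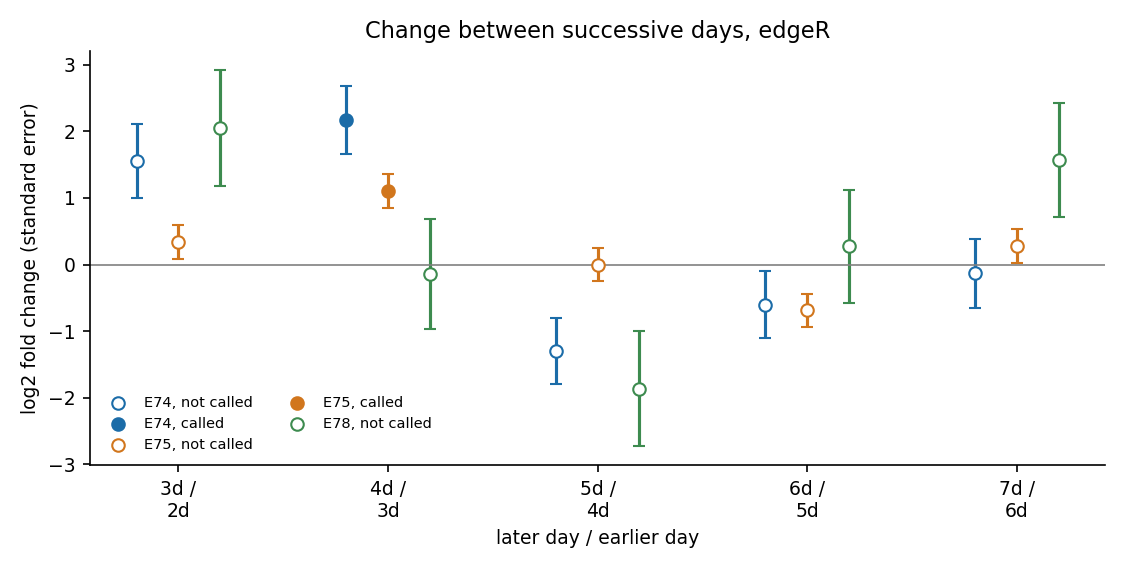
Log2 fold change of each member between successive days (vertical axis, later day over earlier day) for the 5 steps (horizontal axis). Points are edgeR estimates, bars 1 standard error, and filled points passed an adjusted p of 0.05. Only E74 and E75 at Juvenile 4d against 3d, at 2.17 and 1.11, are filled, and the bars of E78 are the longest in every step.

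Over the 6 days, the test of any difference called E74 (edgeR adjusted p = 0.000715) and E75 (edgeR adjusted p = 0.00101) but not E78 (edgeR adjusted p = 0.0845), and 66.4% of all transcripts tested were called. E78 passed this test with an edgeR adjusted p of 0.0439 once replicate 2 of Juvenile 6d was left out, and of 0.0123 once replicate 3 was. The spread of E78 within days was wide. The within-day SD of log2(TPM + 1) was 1.20 for E78, larger than in 96.7% of the transcripts tested. It was 0.72 for E74, larger than in 89.2%, and 0.42 for E75, larger than in 65.3%. By edgeR's own estimate of the spread of counts within days, E78 stood at percentile 93.0 of the transcripts tested and E74 at 84.8. E75 stood at percentile 47.4 by that estimate, so its spread was not wide by both measures.

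By mean level, the days ran 4d, 5d, 6d, 7d, 3d and 2d for E74, 4d, 5d, 7d, 6d, 3d and 2d for E75, and 4d, 3d, 7d, 6d, 5d and 2d for E78, from high to low. The place of Juvenile 6d in the order of E78 rested on replicate 3, without which its mean was 5.85 TPM in place of 22.8 TPM, the lowest of the 6 days. Juvenile 5d rose above Juvenile 6d without 5d replicate 2, at 23.1 TPM in place of 16.3 TPM. The places of Juvenile 3d, 4d and 7d also changed with single libraries left out. No neighbours in these orders differed beyond their spread in edgeR (0 of 5 for each member). For E74, 2 of the 5 neighbours had an unadjusted p below 0.05, and DESeq2 called 2 and limma 0. For E75 and E78 these numbers were all 0. Over all 15 pairs of days edgeR called 7 for E74, 6 for E75 and 0 for E78, and for E78 5 pairs had an unadjusted p below 0.05, while DESeq2 called 3 and limma 0. Juvenile 2d took part in 4 of the called pairs of E74 and in 4 of those of E75, once each against Juvenile 4d, 5d, 6d and 7d, where 49.5%, 33.2%, 36.1% and 48.1% of all transcripts were called. Juvenile 4d against 2d had log2 fold changes of 3.71 for E74 (edgeR adjusted p = 0.000125) and 1.44 for E75 (edgeR adjusted p = 0.000415). E74 was also lower at Juvenile 6d and at Juvenile 7d than at Juvenile 4d, with log2 fold changes of −1.90 and −2.03 (edgeR adjusted p = 0.0128 and 0.0111) in pairs where 25.4% and 24.2% of the transcripts were called, whereas E75 was not called in these pairs (−0.69 and −0.41, edgeR adjusted p = 0.0583 and 0.258).

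Between the members, E78 had the highest TPM of the 3 in 11 of the 18 libraries, E74 in 6 and E75 in 1. E74 was the lowest in 10 libraries, E75 in 5 and E78 in 3. E75 had the narrowest range over all libraries, with a highest level 4.90 times the lowest, against 28.6 times for E74 and 46.4 times for E78.

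The members were also compared as ratios within a library. The log2 ratio of E74 to E75, each as TPM + 1, was 1.28 ± 0.23 in the 3 Juvenile 4d libraries against −0.20 ± 0.61 in the 15 others (SD). The Juvenile 4d libraries lay between 1.09 and 1.53 and the others between −1.19 and 0.99, without overlap. The difference was 1.48 (two-sided exact permutation test, p = 0.00245, adjusted over the 3 pairs of members 0.00735). That p is the smallest that this two-sided test can give for 3 against 15 libraries. With 0.1 TPM added in place of 1 the difference was 1.55. The ratio of E74 to E75 was thus higher in the Juvenile 4d libraries than in the others, where its mean on the log2 scale was negative. The test shuffles single libraries, although the libraries of a day share that day, so its p does not measure the spread between days. Juvenile 4d was also named by the study on these libraries. For E74 to E78 the difference was 0.93 (exact permutation p = 0.439, adjusted 0.640) and for E78 to E75 0.55 (exact permutation p = 0.640, adjusted 0.640), with overlapping libraries. Between Juvenile 4d and 3d the log2 ratio differed by 1.12 for E74 to E75, by 2.31 for E74 to E78 and by −1.19 for E78 to E75, each without overlap and each at an exact permutation p of 0.1, the smallest that 3 against 3 libraries can give.

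**Figure D3:**
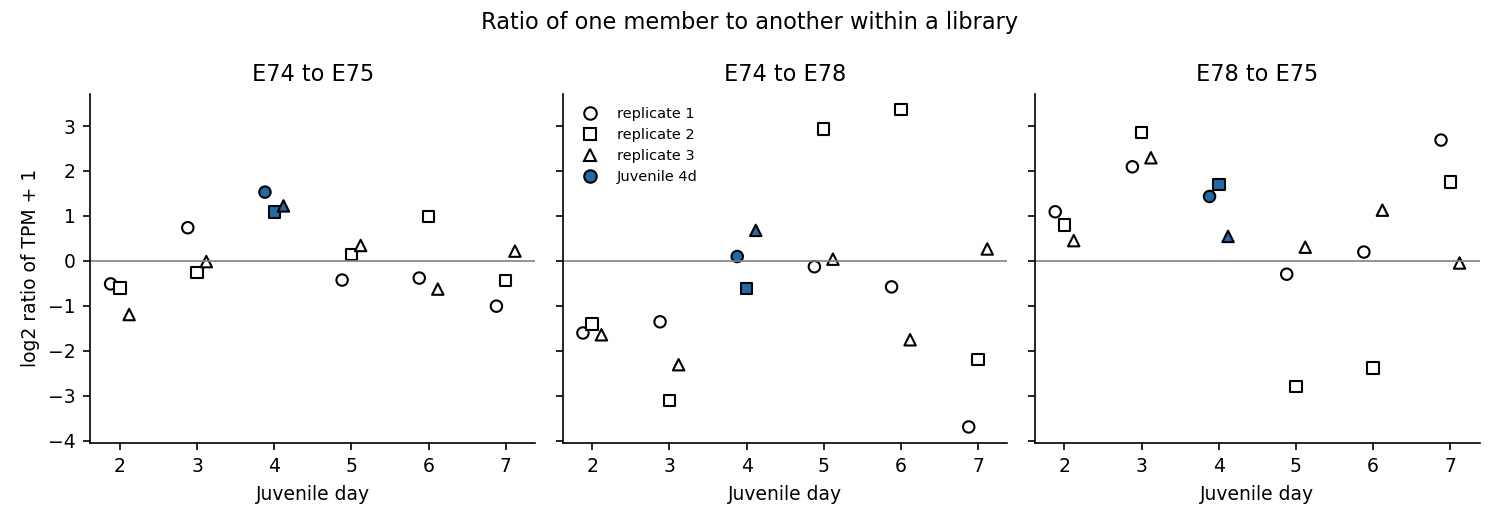
Log2 ratio of TPM + 1 between pairs of members within a library (vertical axis) against juvenile day (horizontal axis). Symbols are the 3 replicates of a day and filled symbols are Juvenile 4d. For E74 to E75 the filled symbols, from 1.09 to 1.53, lie above all others, and in the other panels they lie within the range of the other days.

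Across libraries the values of E74 and E75 went together more closely than those of E78 with either. Pearson's r of log2(TPM + 1) over the 18 libraries was 0.855 for E74 and E75, 0.181 for E74 and E78 and 0.250 for E75 and E78. These are descriptions of libraries that share their day and their depth, and no p-value was calculated. After subtraction of the daily means, r was 0.667 for E74 and E75, −0.350 for E74 and E78 and 0.188 for E75 and E78. At Juvenile 5d, 6d and 7d the library with the highest E74 of its day was also the one with the lowest E78, whereas at Juvenile 2d and 4d replicate 1 was the highest for both. Juvenile 6d replicate 2 shows this most widely, with 31.7 TPM of E74 and 2.16 TPM of E78, and Juvenile 7d replicate 1 had the opposite, with 6.83 TPM of E74 and 100.4 TPM of E78.

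Among the 10435 other transcripts tested, the one most like E74 by Pearson's r was a copy of the ecdysone receptor, EcR g8354.t1, with r = 0.984 over the 18 libraries (Spearman's rho 0.967, at rank 4 by rho). The copy had 387.9, 158.8 and 232.2 TPM at Juvenile 4d against 66.3, 28.0 and 16.7 TPM at Juvenile 3d. At Juvenile 6d it had 12.9, 113.2 and 47.3 TPM, so its libraries stood in the same order as those of E74. Its deviations from the daily means correlated with those of E74 at 0.944 and with those of E78 at −0.210. In all, 605 transcripts had an r above 0.8 with E74, against 693 with E75 and 152 with E78.

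For E75 the transcript with the highest r was g7432.t1, which has no name in the sources (r = 0.969, rho 0.950, at rank 5 by rho). Of the other 9 molting pathway transcripts it was HR4 g2273.t1, a nuclear receptor that in Drosophila is itself induced by ecdysone, with r = 0.923, at rank 45 of the transcripts tested. This likeness was not particular to E75, since HR4 had an r of 0.928 with E74. USP/RXR g11953.t1 and EcR g8354.t1 followed closely for E75, with r = 0.899 and 0.885. HR4 had 48.0, 27.8 and 30.8 TPM at Juvenile 4d against 7.53, 6.45 and 2.34 TPM at Juvenile 3d, a log2 fold change of 2.54 (edgeR adjusted p = 0.00148) beside the 1.11 of E75.

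For E78 the transcript with the highest r was g6162.t1, also unnamed (r = 0.929, rho 0.893), but it ranked 33 by rho, and 2 by r with 0.1 TPM added in place of 1. Of the pathway it was sad g2400.t1, which in insects encodes a cytochrome P450 of ecdysone synthesis, with r = 0.844, at rank 70. The deviations of E78 from the daily means correlated with those of sad at 0.823 and with those of HR3 g6536.t1, the nuclear receptor that E75 opposes in Drosophila, at 0.809. For E74 these values were −0.08 and 0.10, and for E75 they were 0.38 and 0.60. Without subtraction of the daily means, r with HR3 over the 18 libraries was 0.789 for E75 and 0.739 for E78. HR3 had 3.41, 9.76 and 254.5 TPM at Juvenile 6d, and sad had 16.6, 21.8 and 51.9 TPM, so that replicate 3 was the highest for both and for E78. At Juvenile 7d HR3 had 196.0, 221.4 and 89.3 TPM and sad 43.5, 40.1 and 23.9 TPM, and replicate 3 was the lowest for both and for E78.

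**Figure D4:**
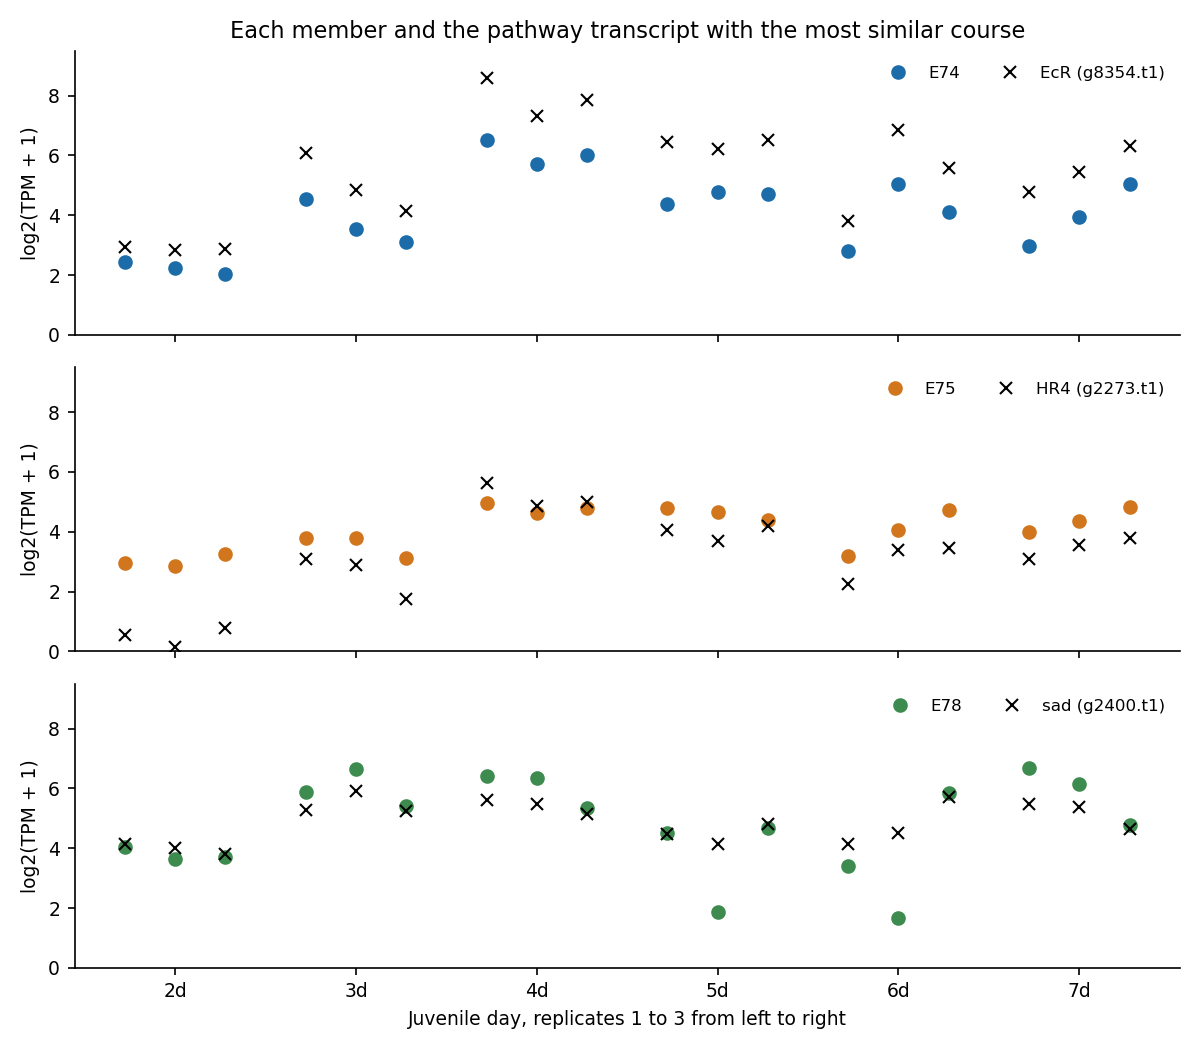
Log2(TPM + 1) in each of the 18 libraries (vertical axes) by juvenile day (horizontal axis, 3 replicates of a day from left to right) for each member (filled circles) and the pathway transcript most like it (crosses). E74 and EcR g8354.t1 keep the same order of libraries within Juvenile 6d and 7d, while E78 lies far below sad in replicate 2 of Juvenile 5d and of Juvenile 6d.

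**Figure D5:**
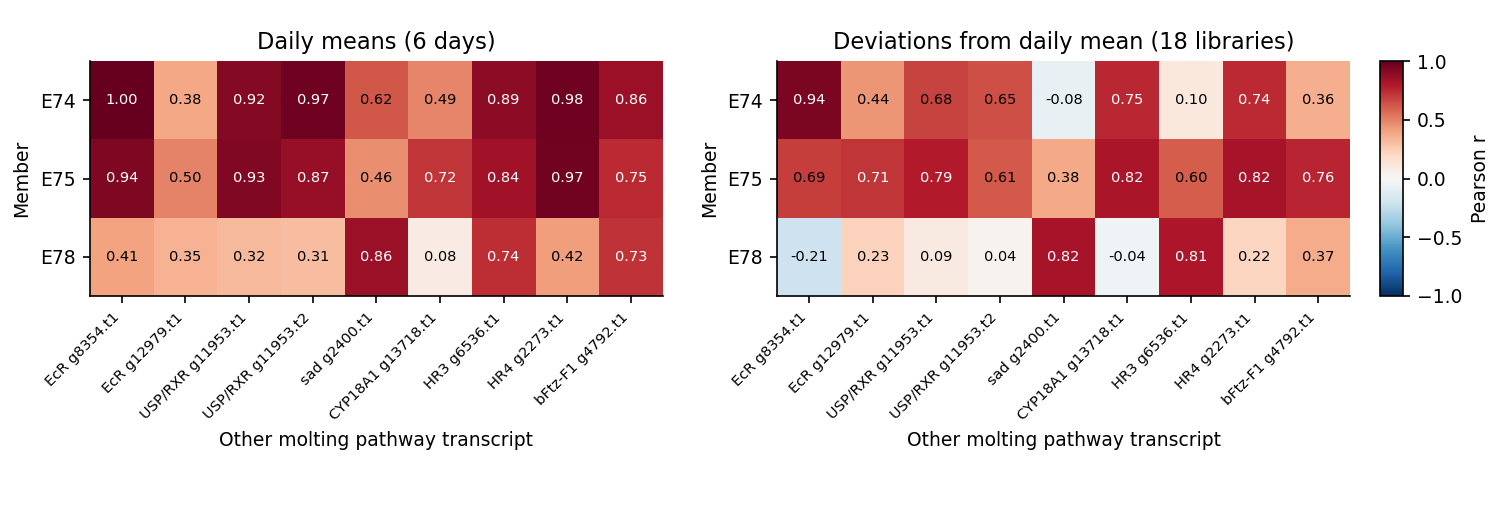
Pearson's r between each member (rows) and the other 9 molting pathway transcripts (columns), over the 6 daily means on the left and over the deviations of the 18 libraries from their daily mean on the right, with the color scale from −1 to 1. E74 has its highest value with EcR g8354.t1 in both panels, and E78 has its highest values with sad and HR3.

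The other 9 pathway transcripts give the setting of these changes. At Juvenile 3d against 2d, 5 of the 9 were called higher by edgeR and 0 lower, namely sad, both copies of EcR, HR3 and HR4, beside 14% higher over all transcripts, and the median log2 fold change of the 9 was 1.31 beside 0.01 over all transcripts tested. In this step edgeR called none of the 3 members. E74 (1.55) and E78 (2.06) nevertheless changed by more than the median of the 9, and both passed with DESeq2, while E75 (0.34) changed by less. HR3 g6536.t1 changed most, by 5.74 on the log2 scale (edgeR adjusted p = 0.00653). At Juvenile 4d against 3d, 4 of the 9 were called higher and 0 lower, beside 7.17% higher over all transcripts, with a median of 2.46 beside −0.01. They were EcR g8354.t1, USP/RXR g11953.t1, HR4 and bFtz-F1 g4792.t1, a nuclear receptor that in Drosophila gives tissues the competence to respond to a later pulse. At Juvenile 5d against 4d, g11953.t1 and bFtz-F1 were called lower and 0 higher, where 11.9% of all transcripts were called lower and 24.8% in either direction, with a median of −1.01 beside −0.03. EcR g12979.t1 was the only transcript of the 9 called at Juvenile 6d against 5d, where it was higher by 0.89 (edgeR adjusted p = 0.0287) and 4.91% of all transcripts were called higher, and at Juvenile 7d against 6d edgeR called 0 of the 9. Reads were divided between the USP/RXR transcripts g11953.t1 and g11953.t2, so their separate values are less certain. E78 and sad had log2 fold changes of −0.14 and −0.27 at Juvenile 4d against 3d (edgeR adjusted p = 0.939 and 0.621).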

How the data were processed

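The authors sequenced SMARTer-amplified cDNA of whole R. varieornatus juveniles as single-end reads and quantified them with kallisto (0.42.4 in the methods, with 0.44.0 also among the submitters' processing notes; fragment length 350 bases, SD 50, bias correction) on predicted coding sequences. They deposited, for each library, estimated counts, TPM and the coding and effective lengths in bases. No transcript identifier matched the reference table of gene names, so positions and sequences are not given here.

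The estimated counts, rounded to integers, were fitted with edgeR 4.0.16 in R 4.3.3 (filterByExpr, TMM, quasi-likelihood, day as the only term, 18 libraries). P-values were adjusted over the 10436 transcripts tested, with an adjusted p of up to 0.05 called. The standard errors given with edgeR estimates were derived as the absolute log2 fold change over the square root of the quasi-likelihood F statistic. The TMM scale lay up to 0.16 (log2) from that of library totals in these steps. Ratios, Poisson intervals (95%) and correlations were computed in Python 3.11.15 with scipy 1.17.1, with 1 TPM added before logs. The tests were tried on simulated data. Alternatives were RLE, upper-quartile or no normalization factors, no filter, DESeq2 1.42.0, limma 3.58.1 on log2(TPM + 1), a replicate block, fewer days and each library left out. The members and the list of 9 pathway transcripts (the rest of the study's molting pathway display) were chosen with earlier results of these data known. The transcripts named were these 12 and, for each member, the transcript with the highest Pearson r.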

Additional observations from a re-analysis of the deposited data

How the results depend on the processing

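Of the 21 edgeR results of E74, E75 and E78 (3 members, 7 comparisons), 12 stayed on the same side of the threshold under every alternative, and no called result changed direction. Several results that were not called passed under some, and the cause was not tested. E74 at Juvenile 3d against 2d gave 1.55 (log2) with upper-quartile factors (edgeR adjusted p = 0.0470), 1.55 with DESeq2 (0.0208), 1.60 with the 2 days alone (0.00969) and 1.57 with Juvenile 2d to 5d (0.00685), and E78 gave 2.06 with DESeq2 (0.0418), 2.11 with the 2 days alone (0.000634) and 2.07 with Juvenile 2d to 5d (0.0149). E74 at Juvenile 5d against 4d gave −1.35 with upper-quartile factors (edgeR adjusted p = 0.0494), −1.32 with DESeq2 (0.0416), −1.29 with the 2 days alone (0.00415) and −1.30 with Juvenile 2d to 5d (0.00465), and E78 −1.85 with Juvenile 2d to 5d (0.0237). E75 at Juvenile 6d against 5d gave −0.76 with DESeq2 (adjusted p = 0.0420). E78 over the 6 days had an adjusted p of 0.0196 with DESeq2 and 0.0337 with limma. Upper-quartile factors and DESeq2 each called 2 of the 5 neighbouring days of E74. Leaving out single libraries gave 1.03 to 1.82 (E74) and 1.66 to 2.29 (E78) at Juvenile 3d against 2d, 1.88 to 2.67 (E74) and 0.90 to 1.20 (E75) at 4d against 3d, −1.44 to −1.12 (E74) at 5d against 4d, −0.99 to −0.52 (E75) at 6d against 5d, and 0.87 to 1.35 (E78) at 4d against the other days. The adjusted p of E78 over the 6 days was 0.0123 to 0.148, and 0 to 2 neighbours of E74 were called. E74 passed at Juvenile 3d against 2d without 3d replicate 3 and at both that step and 5d against 4d without 6d replicate 1 or 2 or 7d replicate 1 or 3, and E78 passed at 3d against 2d without 6d replicate 2 or 3. Library totals alone, an alternative chosen after seeing the data, moved the median of all transcripts by 0.14 (log2) at Juvenile 3d against 2d, 0.16 at 4d against 3d and −0.13 at 5d against 4d, and changed no call of a member. Of all transcripts, 2694 were called at Juvenile 3d against 2d (4630 with the 2 days alone, 4556 with Juvenile 2d to 5d), 1308 at 4d against 3d (3006 and 3392), 2591 at 5d against 4d (4496 with Juvenile 2d to 5d) and 901 at 6d against 5d (10 with the 2 days alone, 570 with limma). Leaving out single libraries gave 1665 to 3656, 490 to 2265, 1640 to 3497 and 253 to 2809 in these steps, and 0 to 446 at 7d against 6d. Calls split into 1464 higher and 1230 lower at 3d against 2d (1670 and 882 on library totals, 1791 and 578 with limma), 1353 and 1238 at 5d against 4d (1079 and 1705 with limma) and 512 and 389 at 6d against 5d (384 and 450 with RLE factors, 251 and 319 with limma). The replicate block changed no call of a member (E74 2.15 and E75 1.09 at Juvenile 4d against 3d). Same-numbered libraries deviated with a median r of −0.0345 and 1 of 18 correlated best with its own number, so the numbers were not taken as pairs.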
